A study of Mus musculus with 6 samples.

Results

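The 34 genes described here encode RUVBL1, RUVBL2 and other subunits of the INO80, SRCAP and TIP60 chromatin remodelling complexes. They were chosen by name from the gene-level table of a mouse RNA-seq study, and all 34 were found among its 35148 genes. Libraries were made from the paraventricular nucleus of the hypothalamus (PVH), which holds neurosecretory and pre-autonomic neurons that act on feeding, stress hormones and water balance. Every animal was Ruvbl2 fl/fl, so both alleles of Ruvbl2 carried loxP sites, and every animal received an AAV2 virus in the PVH 8 weeks before RNA was taken. In 3 libraries the virus was AAV2-Cre-GFP, which delivers Cre recombinase with a fluorescent protein, and in the other 3 it was AAV2-GFP, which lacks Cre. The sources used here do not give the promoter of the virus, the exons between the loxP sites, the age of the animals or whether animals were pooled. The stated aim was to study RUVBL2 in synaptic plasticity.

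RUVBL1 and RUVBL2 are related AAA+ ATPases that join into a ring. The ring holds together the 3 complexes, each built around its own Snf2-type motor: INO80, SRCAP or EP400. SRCAP and TIP60 place the histone variant H2A.Z into nucleosomes, TIP60 also acetylates histones, and INO80 slides nucleosomes and takes part in DNA repair and transcription. Because the ring is shared, the genes for the other subunits of all 3 complexes are the partners of the floxed gene.

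No subunit gene passed the test at gene level. With edgeR's quasi-likelihood test over 20865 genes, 0 of the 34 had an adjusted p under 0.05, in a comparison in which 0.00959% of all genes tested did so. At an unadjusted p under 0.05 there was 1 of 34, Ino80, in a comparison where 17.2% of all genes tested did so, and DESeq2 called 1 of 34, again Ino80, where it called 8.03% of the genes to which it gave an adjusted p. Ino80 had 6.24 ± 0.390 FPKM in the Cre-labelled libraries and 4.92 ± 0.399 FPKM in the GFP-labelled libraries (SD, n = 3 each; edgeR adjusted p = 0.138; DESeq2 adjusted p = 0.0339). Ruvbl2 itself had no lower level in the AAV2-Cre-GFP libraries than in the others. FPKM is the count scaled to the length of the gene and to the library's total, and a log2 difference is always the Cre-labelled over the GFP-labelled libraries.

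Total counts were 41890769 to 54702785 per library, and the subunit genes had 349 to 17592 counts each in a library. Over all genes, libraries of the same group differed by more than counting error (chi-square per gene 11.4 to 44.2 in such pairs). How much of the spread of the subunit genes was counting error was not tested. Whether the libraries are from separate animals is not in the labels, and the p-values then measure only the spread between these samples, which may be technical. All 10 PVH marker genes listed were detected, 1 with a positive and 9 with a negative log2 difference, and their median was -0.54. They summed to 447 to 797 CPM (counts scaled to the library total alone) in the Cre-labelled and to 518 to 1001 CPM in the GFP-labelled libraries. Oxt, the highest of them, averaged 203 CPM over all libraries and weighs most in these sums. Genes of other organs stood out in 3 libraries. The 18 kidney genes listed summed to 714 and 783 CPM in Cre-labelled libraries 2 and 3, against 72.5 CPM in Cre-labelled library 1 and 80.5 to 99.5 CPM in the GFP-labelled libraries. The 18 testis genes listed summed to 164 to 178 CPM in the Cre-labelled libraries, against 1040 CPM in GFP-labelled library 1 and 160 and 159 CPM in GFP-labelled libraries 2 and 3. Odf2, the highest of these genes, averaged 152 CPM over all libraries, so a sum near that level can come from 1 gene alone. The ribosomal RNA model CT010467 stood at 17633, 13492 and 7301 CPM in Cre-labelled libraries 1, 2 and 3, against 2072 to 2219 CPM in the GFP-labelled libraries. Pan-neuronal markers, 18 genes of which 18 had a negative log2 difference, summed to 7066 to 7683 CPM in the Cre-labelled and 8433 to 8622 CPM in the GFP-labelled libraries. Ependymal markers, 7 genes, summed to 158 to 221 CPM in the Cre-labelled and 128 to 132 CPM in the GFP-labelled libraries. Thalamus markers, 9 genes of which 9 had a negative log2 difference, varied between libraries of a group. They summed to 586 to 1057 CPM in the Cre-labelled and 848 to 1211 CPM in the GFP-labelled libraries. The sums of the astrocyte, oligodendrocyte, microglia, and endothelial and mural lists also overlapped between the groups. The part of any of these in the subunit values was not tested, and in bulk tissue fewer cells of a type and less RNA per cell cannot be told apart.

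Start-site sequences are given for the floxed gene, for its partner and for the 3 other subunit genes with a RefSeq entry whose FPKM values did not overlap between the groups, so that the genes the results turn on can be located. Each is 300 bases, 250 before and 50 from the start site on, from RefSeq on GRCm38.p6, written 5′ to 3′ along the gene. Capitals mark CCAAT (or ATTGG, the same letters on the other strand) and the ETS-type letters CCGGAAG (or CTTCCGG). The windows are chr7:45434415-45434714 (minus strand) for Ruvbl2, chr6:88465159-88465458 (plus strand) for Ruvbl1, chr2:119477638-119477937 (minus strand) for Ino80, chr15:99251912-99252211 (minus strand) for Mcrs1 and chr3:32708296-32708595 (plus strand) for Actl6a. The RefSeq starts of Ruvbl2 and Actl6a lie inside the spans that the deposited table gives for these genes.
Ruvbl2: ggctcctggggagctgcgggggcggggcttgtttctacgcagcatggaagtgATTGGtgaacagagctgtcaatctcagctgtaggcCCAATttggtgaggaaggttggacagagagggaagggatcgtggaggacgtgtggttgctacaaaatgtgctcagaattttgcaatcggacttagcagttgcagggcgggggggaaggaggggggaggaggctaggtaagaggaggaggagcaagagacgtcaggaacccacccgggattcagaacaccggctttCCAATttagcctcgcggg
Ruvbl1: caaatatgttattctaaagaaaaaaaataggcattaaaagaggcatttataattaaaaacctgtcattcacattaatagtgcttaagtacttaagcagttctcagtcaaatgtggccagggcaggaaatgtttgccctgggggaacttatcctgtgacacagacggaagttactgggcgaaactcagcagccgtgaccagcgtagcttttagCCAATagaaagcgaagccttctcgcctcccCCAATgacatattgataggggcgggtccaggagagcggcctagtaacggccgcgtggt
Ino80: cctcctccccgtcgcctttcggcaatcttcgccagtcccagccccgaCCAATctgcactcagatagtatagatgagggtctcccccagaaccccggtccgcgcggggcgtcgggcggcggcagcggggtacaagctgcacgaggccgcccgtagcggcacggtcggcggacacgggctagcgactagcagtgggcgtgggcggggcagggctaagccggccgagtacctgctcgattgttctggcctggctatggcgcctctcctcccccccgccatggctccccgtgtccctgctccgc
Mcrs1: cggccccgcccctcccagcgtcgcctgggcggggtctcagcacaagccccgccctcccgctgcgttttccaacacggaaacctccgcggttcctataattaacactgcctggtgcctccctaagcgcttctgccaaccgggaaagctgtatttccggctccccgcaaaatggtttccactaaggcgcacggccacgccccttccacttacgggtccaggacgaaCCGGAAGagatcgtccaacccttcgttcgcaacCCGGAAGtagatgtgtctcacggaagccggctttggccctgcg
Actl6a: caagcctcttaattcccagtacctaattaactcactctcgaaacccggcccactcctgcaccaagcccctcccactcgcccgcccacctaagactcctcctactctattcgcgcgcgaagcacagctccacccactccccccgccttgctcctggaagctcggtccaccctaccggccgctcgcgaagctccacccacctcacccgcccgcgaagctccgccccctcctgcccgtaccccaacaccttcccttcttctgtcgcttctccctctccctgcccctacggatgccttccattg

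Counting from the start site, the Ruvbl1 window holds CCAAT at -38 and -8, and the Ruvbl2 window holds the letters at -198 (on the other strand), -163 and 33. In the Ino80 window CCAAT is at -203, in the Mcrs1 window CCGGAAG is at -26 and 8, and the Actl6a window holds neither. RefSeq windows were found for 27 of the 34 genes, 36 windows in all. Some genes had several windows, and those of Actr6, Ing3 and Morf4l2 overlap, so the same site can count more than once. On either strand CCGGAAG was in 10 of the 36 (27.8%), from the 9 genes Actr6, Dmap1, Ino80b, Kat5, Mbtd1, Mcrs1, Meaf6, Tfpt and Znhit1, against 8.86% of 32851 windows of all genes and 14.02% of the 17500 windows of genes tested. CCAAT was in 18 of 36 (50.0%), from 15 genes, against 37.4% of all windows and 37.3% of those of genes tested. TATAAA was in 2 of 36 (5.56%), against 13.6% of all windows and 8.17% of those of genes tested. AAGATGGC, the YY1-type letters, was in 2 of 36 (5.56%), those of Ino80b and Znhit1, against 2.75% of all windows and 3.58% of those of genes tested. CCGGAAG and AAGATGGC can share the letters AAG, and CCAAT can share letters with ATTGG, but matches shared letters in 0 of the 36 windows. The median G and C content was 56.7% in the 36 windows and 52.7% in all windows. These are matches of letters, and no library measured binding or chromatin at these sites.

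The subunit genes were expressed in every library at moderate levels. Their median was 8.46 FPKM, against 2.73 FPKM over all genes tested. Morf4l2 was the highest at 61.2 ± 2.23 FPKM in the Cre-labelled and 62.1 ± 4.20 FPKM in the GFP-labelled libraries, and Morf4l1 followed at 29.8 ± 2.19 FPKM in the Cre-labelled and 32.0 ± 1.18 FPKM in the GFP-labelled libraries (SD, n = 3 each). The lowest were Mbtd1, at 2.05 ± 0.313 FPKM in the Cre-labelled and 1.83 ± 0.202 FPKM in the GFP-labelled libraries, and Ino80d, at 2.11 ± 0.0692 FPKM in the Cre-labelled and 1.99 ± 0.0215 FPKM in the GFP-labelled libraries. By complex the median level was 9.59 FPKM for the 4 genes of the ATPase ring and its actin-related partners, 8.66 FPKM for the 3 genes that SRCAP and TIP60 share, 6.60 FPKM for the 12 INO80 genes, 12.03 FPKM for the 3 SRCAP genes and 10.2 FPKM for the 12 TIP60 genes. Among the motors, the ATPases that drive remodelling, Srcap averaged 11.96 ± 0.578 FPKM in the Cre-labelled and 12.1 ± 1.73 FPKM in the GFP-labelled libraries, and Ep400 averaged 9.998 ± 0.636 FPKM in the Cre-labelled and 10.5 ± 0.271 FPKM in the GFP-labelled libraries. Ino80 was the lowest of these 3 in both groups.

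**Figure D1:**
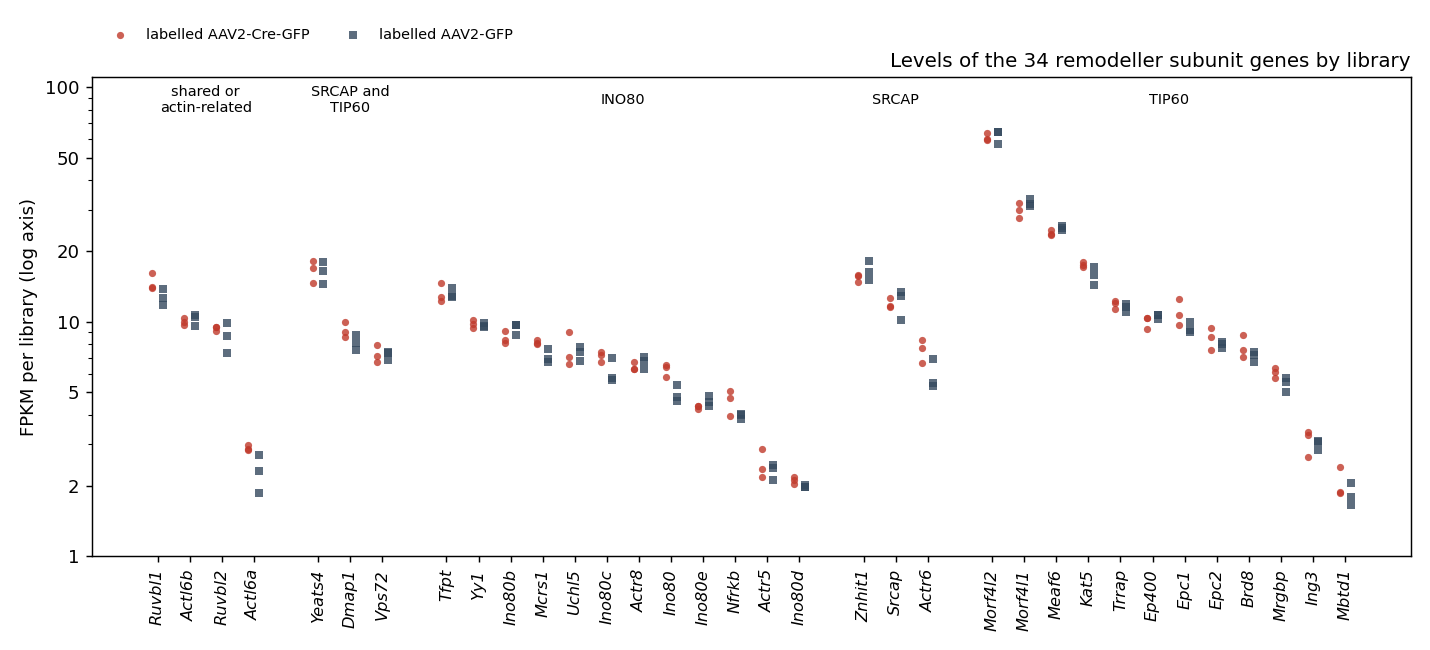
FPKM (log axis) of the 34 subunit genes in each of the 6 libraries, grouped by complex and ordered by mean level, with libraries labelled AAV2-Cre-GFP as circles left of those labelled AAV2-GFP as squares. Levels run from about 2 FPKM for Mbtd1 and Ino80d to about 60 FPKM for Morf4l2, and for most genes the circles and squares cover the same range.

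Ruvbl2, the floxed gene (chromosome 7, 45421760 to 45438096 on GRCm38, minus strand), had 9.53, 9.10 and 9.51 FPKM in Cre-labelled libraries 1, 2 and 3, against 9.90, 7.36 and 8.72 FPKM in GFP-labelled libraries 1, 2 and 3. The GFP-labelled libraries held both the highest and the lowest value. The means were 9.38 ± 0.240 FPKM in the Cre-labelled and 8.66 ± 1.27 FPKM in the GFP-labelled libraries (SD, n = 3 each; two-sided exact permutation p = 0.5, where 3 against 3 cannot go below 0.1). The log2 difference was 0.077 ± 0.11 (SE; edgeR adjusted p = 0.773), and its 95% interval, -0.18 to 0.33, leaves room for a fall of at most 11.7% and a rise of at most 26.0% in the RNA of the whole sample. Without GFP-labelled library 2 the log2 difference was -0.029. The count covers all exons of the gene, so transcripts that lack a floxed part but keep the rest would still be counted. It also covers 310 bases (10.7% of the exonic length) that lie opposite exons of Gys1, whose count was 83.6% of that of Ruvbl2. Whether counting used the strand is not stated. The libraries are therefore named by their labels throughout.

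Ruvbl1, the partner ATPase (chromosome 6, 88465409 to 88497572, plus strand), had 16.1, 14.04 and 13.9 FPKM in the 3 Cre-labelled libraries, against 11.7, 12.7 and 13.8 FPKM in the 3 GFP-labelled libraries. The groups did not overlap in FPKM, by the narrow step between Cre-labelled library 3 and GFP-labelled library 3, and they did overlap in CPM with TMM scaling. The log2 difference was 0.17 ± 0.093 (SE, n = 3 each; edgeR adjusted p = 0.405). Of the 31-base words of the Ruvbl1 transcripts 57.0% are shared with the processed copy Gm5837, which had 0.820 CPM against 30.1 CPM for Ruvbl1. Within a library the ratio of Ruvbl1 to Ruvbl2 was 1.69, 1.54 and 1.47 in the Cre-labelled libraries, against 1.18, 1.72 and 1.58 in the GFP-labelled libraries. GFP-labelled library 1 had the lowest ratio of the 6, and the difference of the log2 ratios, 0.081 (two-sided exact permutation p = 0.9), was -0.078 without it.

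Actl6a and Actl6b encode actin-related proteins that also serve the BAF remodeller, Actl6a in dividing and progenitor cells and Actl6b in neurons. Actl6a had 2.83, 2.88 and 2.98 FPKM in the Cre-labelled libraries, against 2.69, 1.86 and 2.31 FPKM in the GFP-labelled libraries. All 3 Cre-labelled values lay above the GFP-labelled ones, and the log2 difference of 0.30 ± 0.16 (SE, n = 3 each; edgeR adjusted p = 0.373) rested on the widest spread of the subunits, a coefficient of variation of 18.3% in the GFP-labelled libraries. Without GFP-labelled library 2 it was 0.17. Of the exonic bases of Actl6a 11.6% lie opposite exons of Mrpl47, whose count was 110.04% of its own. Actl6b had 10.4, 9.72 and 9.995 FPKM in the Cre-labelled libraries and 9.62, 10.5 and 10.7 FPKM in the GFP-labelled libraries, with overlap between the groups (log2 difference -0.072 ± 0.067, SE; edgeR adjusted p = 0.631). Actl6b was the more abundant of the pair in all 6 libraries, as the neuronal form is known to be in adult brain. Relative to the geometric mean of the 18 pan-neuronal markers, Actl6b stood at -2.52 ± 0.12 in log2 in the Cre-labelled and -2.70 ± 0.089 in the GFP-labelled libraries (SD, n = 3 each), and these values overlapped between the groups. The ratio of Actl6a to Actl6b was 0.272, 0.296 and 0.298 in the Cre-labelled libraries, against 0.280, 0.177 and 0.216 in the GFP-labelled libraries (difference of the log2 ratios 0.39; two-sided exact permutation p = 0.2, and 0.4 after Benjamini-Hochberg adjustment over the 4 pairs compared).

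Dmap1, Yeats4 and Vps72 are shared by SRCAP and TIP60. Vps72 is the chaperone that hands H2A.Z to the complex, Yeats4 reads acylated histone tails, and Dmap1 was first known as a partner of a DNA methyltransferase. Their log2 differences were 0.13 for Dmap1, -0.014 for Yeats4 and -0.029 for Vps72, with overlapping groups for each (edgeR adjusted p = 0.504, 0.964 and 0.891). Yeats4, the most abundant, had 18.2, 14.7 and 16.9 FPKM in the Cre-labelled libraries, against 18.0, 16.4 and 14.5 FPKM in the GFP-labelled libraries.

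In the INO80 complex the motor gene had the smallest p. Ino80 (chromosome 2, 119373042 to 119477687, minus strand) had 6.40, 5.79 and 6.52 FPKM in the Cre-labelled libraries, against 4.61, 5.37 and 4.77 FPKM in the GFP-labelled libraries. The lowest Cre-labelled value, in library 2, lay above the highest GFP-labelled one, also in library 2. The log2 difference was 0.30 ± 0.081 (SE, n = 3 each), a ratio of 1.24-fold with a 95% interval of 1.08 to 1.41, with an edgeR unadjusted p of 0.00578 and an adjusted p of 0.138. With each library left out in turn it stayed between 0.26 and 0.37 (edgeR adjusted p between 0.171 and 0.301), and on log2(FPKM + 0.5) limma gave an adjusted p of 0.115. No exon of another annotated gene overlaps Ino80, and it shares none of its 31-base words with another gene.

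The accessory subunits of INO80 varied around no difference. Mcrs1, a forkhead-associated domain protein, had 8.12, 8.39 and 8.05 FPKM in the Cre-labelled libraries, against 6.96, 7.63 and 6.76 FPKM in the GFP-labelled libraries, without overlap (log2 difference 0.17 ± 0.077, SE; edgeR adjusted p = 0.325). Of its 31-base words 30.6% are shared with Gm13127, which had 0.762 CPM against 31.1 CPM for Mcrs1. Ino80d had 2.17, 2.04 and 2.12 FPKM in the Cre-labelled libraries, against 1.97, 2.01 and 1.98 FPKM in the GFP-labelled libraries. Its groups did not overlap either, but they were 0.049 ± 0.060 apart in log2 (SE; edgeR adjusted p = 0.730), so a lack of overlap here came with a small distance. Nfrkb and Ino80c each had a log2 difference of 0.17 (edgeR adjusted p = 0.353 and 0.465). Ino80b, at -0.17 ± 0.098 (SE), and Ino80e, at -0.12 ± 0.069 (SE), had the lowest values of the complex (edgeR adjusted p = 0.417 and 0.423). Of the exonic bases of Ino80e 16.4% lie opposite exons of other genes. Most of these, 1103 bases, lie opposite Doc2a, whose count was 73.4% of that of Ino80e. The actin-related genes Actr5 and Actr8, whose products sit in separate modules of the complex, had 0.055 and -0.095, the deubiquitinase gene Uchl5 had 0.0054, Tfpt had -0.040 and the DNA-binding factor gene Yy1 had -0.017. Yy1 was measured most closely of these, with a 95% interval of -0.14 to 0.11 in log2. Over the 12 INO80 genes 7 had a positive and 5 a negative log2 difference, with a median of 0.027.

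In the SRCAP complex the motor gene Srcap had 11.7, 11.6 and 12.6 FPKM in the Cre-labelled libraries, against 10.1, 13.3 and 12.9 FPKM in the GFP-labelled libraries (log2 difference -0.055 ± 0.10, SE; edgeR adjusted p = 0.835). GFP-labelled library 1 was the lowest of the 6 and the other 2 GFP-labelled libraries the highest. The Srcap value is uncertain, since 61.7% of its exonic bases are also exons of Gm42715 on the same strand, to which 41.1 CPM were assigned beside 219.7 CPM for Srcap. Actr6, an actin-related subunit that is needed for H2A.Z deposition, had 8.38, 7.70 and 6.64 FPKM in the Cre-labelled libraries, against 6.93, 5.34 and 5.47 FPKM in the GFP-labelled libraries. Only GFP-labelled library 1 overlapped the Cre-labelled values. With 0.32 ± 0.14 (SE) Actr6 had the highest log2 difference of the 34 genes, and a spread that left it at an edgeR adjusted p of 0.304. Znhit1, a zinc finger subunit also needed for H2A.Z deposition, had 15.7, 15.7 and 14.7 FPKM in the Cre-labelled libraries and 18.1, 16.3 and 15.0 FPKM in the GFP-labelled libraries (log2 difference -0.14 ± 0.087, SE; edgeR adjusted p = 0.461). Of its exonic bases 28.4% lie opposite exons of Plod3, whose count was 128.0% of that of Znhit1.

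**Figure D2:**
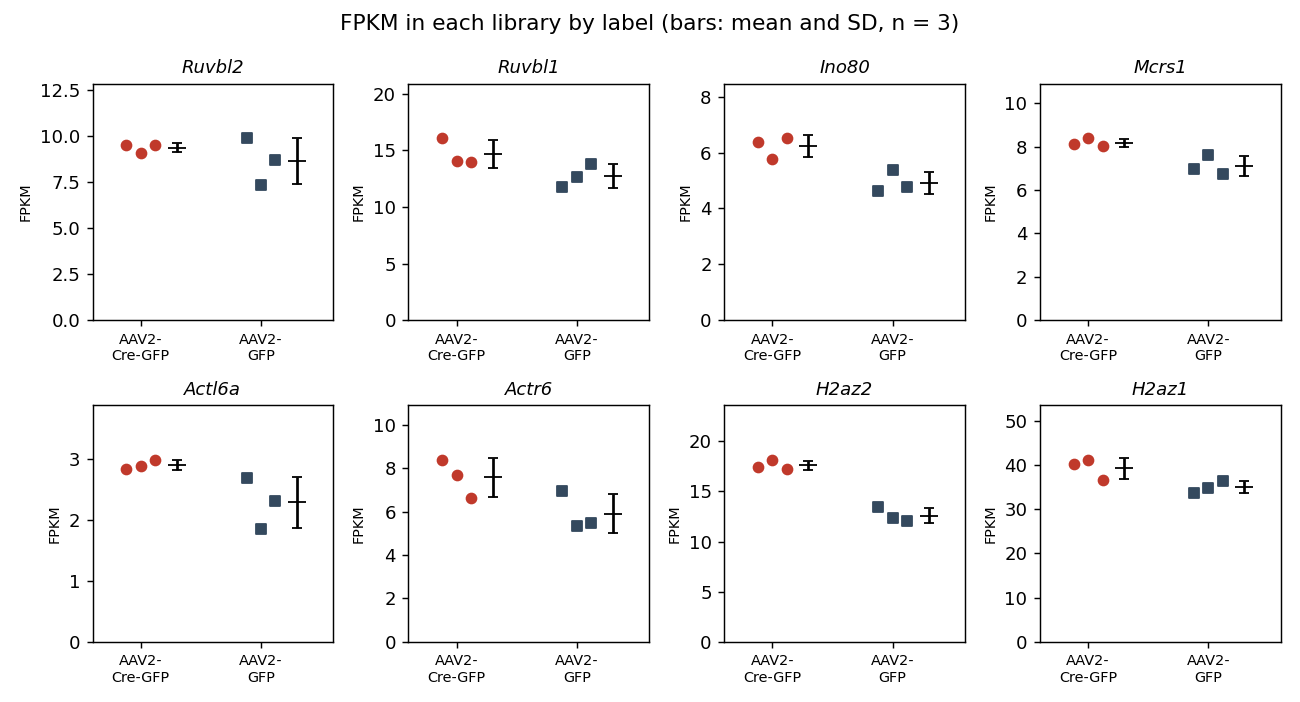
FPKM in each library for 6 subunit genes and the 2 H2A.Z genes, libraries labelled AAV2-Cre-GFP left and AAV2-GFP right, with the mean and SD (n = 3) as a bar beside the points. Ruvbl2 overlaps between the groups, while Ino80 (6.24 against 4.92 FPKM) and H2az2 (17.6 against 12.6 FPKM) do not.

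The log2 differences of the TIP60 genes ran from -0.14 for Morf4l1 to 0.18 for Epc1, and their median size, sign aside, was 0.107, against 0.107 for the INO80 genes. Kat5, the acetyltransferase, had 18.0, 17.5 and 17.1 FPKM in the Cre-labelled libraries, against 14.4, 17.1 and 15.9 FPKM in the GFP-labelled libraries (log2 difference 0.11 ± 0.074, SE; edgeR adjusted p = 0.487). The groups overlapped by Cre-labelled library 3 and GFP-labelled library 2. Of the exonic bases of Kat5 12.1% lie opposite exons of Rnaseh2c, whose count was 14.6% of that of Kat5. Trrap, the scaffold that binds activators, had 12.001, 11.3 and 12.3 FPKM in the Cre-labelled libraries and 10.97, 11.6 and 11.9 FPKM in the GFP-labelled libraries, and with 11592 to 16285 counts its 95% interval was -0.12 to 0.14 in log2. Ep400, the motor, had 10.3, 9.26 and 10.4 FPKM in the Cre-labelled libraries and 10.7, 10.2 and 10.7 FPKM in the GFP-labelled libraries (log2 difference -0.11 ± 0.058, SE; edgeR adjusted p = 0.363). Both large proteins are encoded by long genes whose counts are among the highest here.

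Of the other TIP60 genes, Epc1 and Epc2 encode alternative forms of the enhancer of polycomb scaffold. Epc1 had 12.5, 10.7 and 9.70 FPKM in the Cre-labelled libraries and 9.21, 10.003 and 9.04 FPKM in the GFP-labelled libraries (log2 difference 0.18 ± 0.094, SE; edgeR adjusted p = 0.383), and without Cre-labelled library 1 its log2 difference was 0.097. Epc2 had a log2 difference of 0.058 ± 0.086 (SE; edgeR adjusted p = 0.782). The ratio of Epc1 to Epc2 was 1.32, 1.24 and 1.28 in the Cre-labelled libraries, against 1.12, 1.24 and 1.17 in the GFP-labelled libraries, overlapping at library 2 of each group (difference of the log2 ratios 0.12; two-sided exact permutation p = 0.2, adjusted 0.4). Morf4l1, which carries a chromodomain that binds methylated histone, had 32.0, 29.8 and 27.6 FPKM in the Cre-labelled libraries, against 33.3, 31.1 and 31.6 FPKM in the GFP-labelled libraries (log2 difference -0.14 ± 0.063, SE; edgeR adjusted p = 0.304). Its relative Morf4l2, which lacks that domain, was about level, at -0.058 ± 0.063 in log2 (SE; edgeR adjusted p = 0.689). The ratio of Morf4l1 to Morf4l2 was 0.501, 0.499 and 0.458 in the Cre-labelled libraries, against 0.582, 0.482 and 0.490 in the GFP-labelled libraries (difference of the log2 ratios -0.088; two-sided exact permutation p = 0.6, adjusted 0.8). The 2 genes share 12.1% and 15.7% of their words with other genes. Meaf6 had -0.10 ± 0.048 in log2 (SE; edgeR adjusted p = 0.325), and Mrgbp, Mbtd1, Brd8 and Ing3, the last of which reads methylated histone tails, had 0.12, 0.12, 0.085 and 0.0093. Over the 12 TIP60 genes 8 had a positive and 4 a negative log2 difference, with a median of 0.035.

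**Figure D3:**
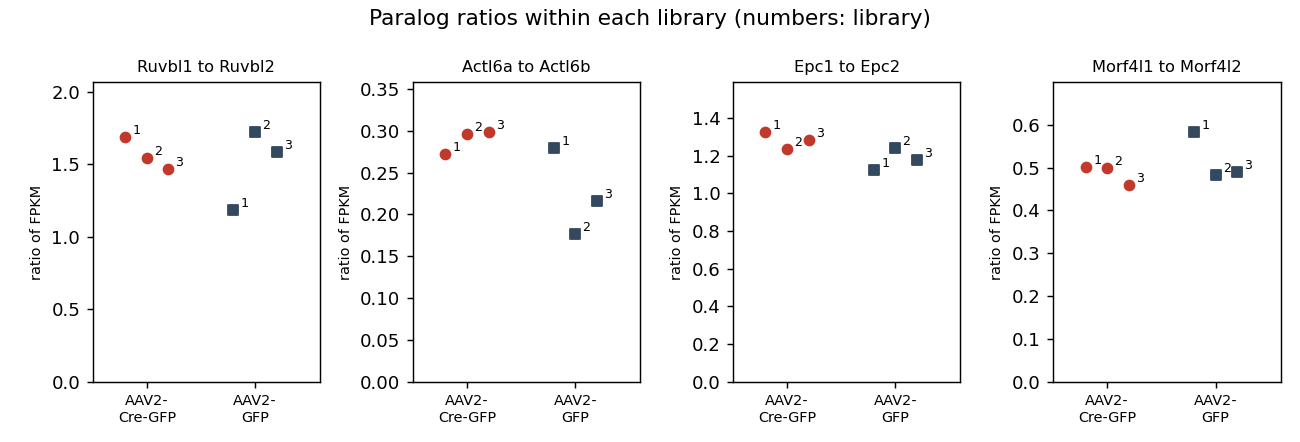
Ratio of FPKM within each library for 4 paralog pairs, libraries labelled AAV2-Cre-GFP left and AAV2-GFP right, numbered by library. In each pair the groups overlap, and the Actl6a to Actl6b ratio is 0.272 to 0.298 in the Cre-labelled libraries against 0.177 to 0.280 in the GFP-labelled libraries.

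As a list, 20 of the 34 genes had a positive and 14 a negative log2 difference, and 49.0% of all genes tested had a positive one. The median was 0.030, against -0.0058 over all genes tested and -0.015 over the 11431 genes in the same range of FPKM. Without Cre-labelled library 1 the median was -0.0056 and 17 of 34 were positive, so its sign rests on that library. By complex the median was 0.12 for the ring and its actin-related partners (3 of 4 positive), -0.014 for the genes that SRCAP and TIP60 share (1 of 3) and -0.055 for SRCAP (1 of 3).

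The 95% intervals were narrow for most of the subunit genes. They are for the RNA of the whole sample, and they do not bound a change within the cells that Cre reached. For 32 of the 34 genes the 95% interval lay within 1.5-fold in both directions, and for 20 it lay within 1.25-fold. The interval that reached highest was that of Actl6a, at 1.59-fold, and the one that reached lowest was that of Ino80b, at a fall of 24.2%. The median size of the log2 difference, sign aside, was 0.107, against 0.180 over all genes tested and 0.127 over genes in the same range of FPKM. Between libraries of a group the median coefficient of variation was 6.06% in the Cre-labelled and 6.24% in the GFP-labelled libraries for these genes, against 11.7% and 11.9% over all genes tested and 7.50% and 7.39% over genes in the same range of FPKM.

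**Figure D4:**
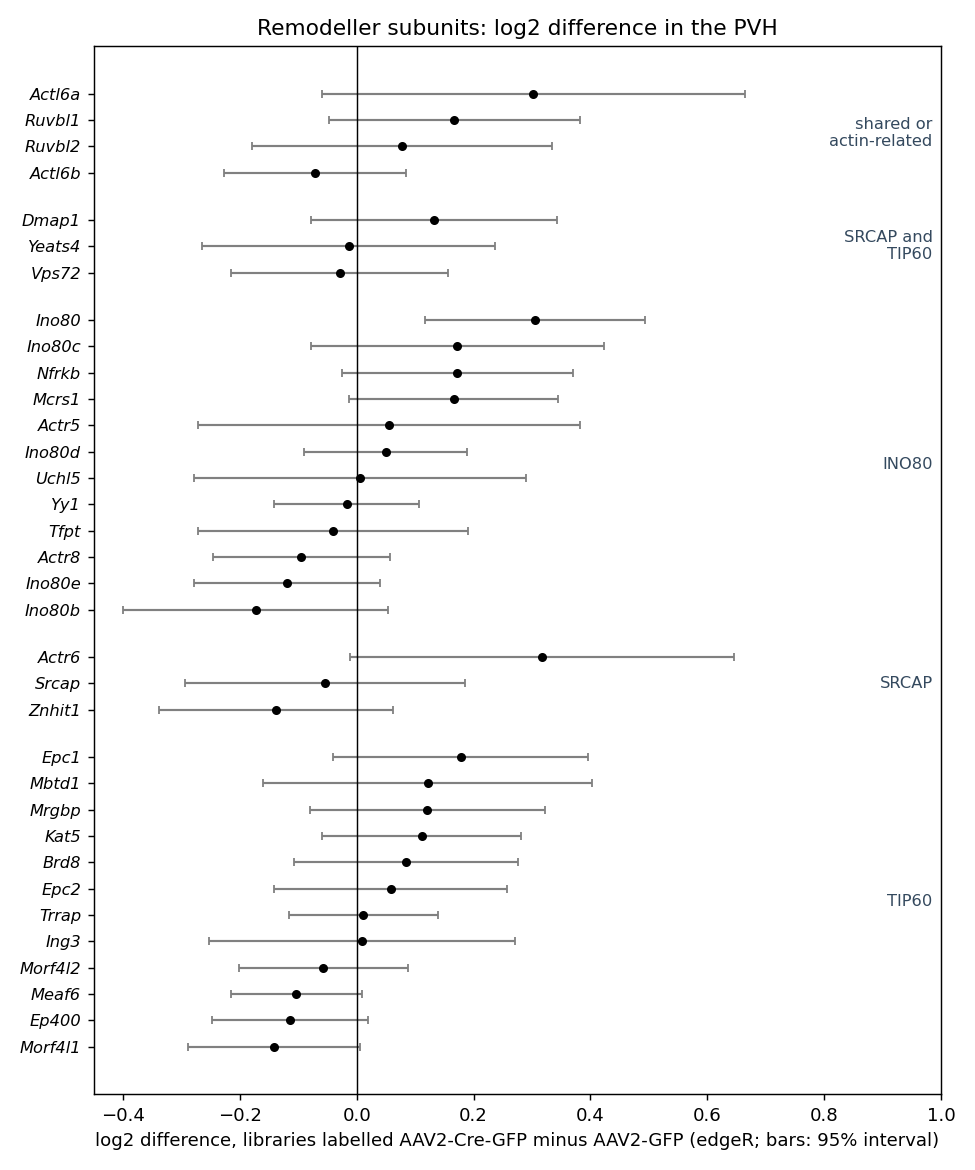
Log2 difference (libraries labelled AAV2-Cre-GFP minus AAV2-GFP, edgeR) with its 95% interval for the 34 subunit genes, grouped by complex. The interval of Ino80, 0.12 to 0.49, is the one that does not reach 0, and the points run from -0.17 for Ino80b to 0.32 for Actr6.

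Which way the groups separated depended on how libraries were scaled. In FPKM, 5 of the 34 genes had all 3 Cre-labelled values above all 3 GFP-labelled ones (Ruvbl1, Actl6a, Ino80, Ino80d and Mcrs1) and 0 had them all below. Over all genes tested 22.9% had no overlap between the groups, 14.1% above and 8.8% below. In CPM with TMM scaling 4 were above (Actl6a, Ino80, Ino80d and Mcrs1) and 5 below (Ino80b, Ino80e, Ep400, Morf4l1 and Meaf6), against 11.1% above and 11.7% below. The FPKM values summed over all genes to 257124 to 263838 in the Cre-labelled and 244656 to 251157 in the GFP-labelled libraries. The members' shares, 14.7% above in FPKM and 11.8% above and 14.7% below in CPM, are near the background of each scale.

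The subunit levels of Cre-labelled library 1 stood furthest from the others. Its median log2 deviation from each gene's mean FPKM level over the libraries was 0.138, against -0.043 to -0.0058 in the other libraries. Cre-labelled library 1 had the highest FPKM of the 6 for 19 of the 34 genes and the lowest for 0, and with TMM scaling the highest for 15 and the lowest for 0. GFP-labelled library 1 had the lowest FPKM for 12 and Cre-labelled library 3 for 8. These counts and deviations are for the subunit genes alone. Whether they differ from those of all genes tested was not tested. Cre-labelled library 1 is also the library with the most CT010467, Rn7sk and mt-Rnr2, the last pair being the 7SK RNA and the large mitochondrial ribosomal RNA, and with the lowest sum of pan-neuronal markers. Rn7sk stood at 9.95 CPM there and at 6.96 and 3.24 CPM in Cre-labelled libraries 2 and 3, against 1.5 to 2.31 CPM in the GFP-labelled libraries. The part of these in its subunit levels was not tested.

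H2A.Z itself, the histone that SRCAP and TIP60 place, is encoded by H2az1 and H2az2, and the log2 difference of H2az2, 0.45, was above that of each of the 34 subunit genes. H2az2 (chromosome 11, 6427229 to 6444443) had 17.4, 18.1 and 17.2 FPKM in the Cre-labelled libraries, against 13.5, 12.3 and 12.002 FPKM in the GFP-labelled libraries. The groups did not overlap, at 17.6 ± 0.493 FPKM in the Cre-labelled and 12.6 ± 0.765 FPKM in the GFP-labelled libraries (SD, n = 3 each), and the SE of the log2 difference was 0.080. The edgeR adjusted p was 0.0758, between 0.0751 and 0.301 with each library left out in turn, and the DESeq2 adjusted p was 0.00146. No exon of another gene overlaps it. H2az1, named here after its values were seen, had 40.1, 41.1 and 36.5 FPKM in the Cre-labelled libraries, against 33.6, 34.8 and 36.3 FPKM in the GFP-labelled libraries (log2 difference 0.13 ± 0.068, SE; edgeR adjusted p = 0.375). Its groups were apart by the step between Cre-labelled library 3 and GFP-labelled library 3, and 13.0% of its words are shared with other genes. Anp32e, the chaperone that removes H2A.Z and that the deposited annotation places in the SRCAP complex, was also named after its values were seen, and had 24.0 ± 0.863 FPKM in the Cre-labelled and 26.1 ± 1.16 FPKM in the GFP-labelled libraries (log2 difference -0.16 ± 0.056, SE; edgeR adjusted p = 0.217).

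Over the 13 genes of H2A.Z and nucleosome handling 0 passed the edgeR threshold, which 0.00959% of all genes tested passed. DESeq2 called 2, H2az2 and Nap1l2, where it called 8.03% of all the genes to which it gave an adjusted p. In this list 6 had a positive and 7 a negative log2 difference and the median was -0.052. At an unadjusted p under 0.05 there were 2 positive and 5 negative, in a comparison where 8.11% of all genes tested were positive and 9.11% negative at that level. Nap1l2, a neuronal nucleosome assembly protein, had 45.2, 44.7 and 37.0 FPKM in the Cre-labelled libraries, against 49.4, 48.0 and 49.7 FPKM in the GFP-labelled libraries (log2 difference -0.25 ± 0.081, SE; edgeR adjusted p = 0.186; DESeq2 adjusted p = 0.0460). Brd2, a bromodomain protein that binds acetylated nucleosomes with H2A.Z, had 24.5, 22.0 and 24.0 FPKM in the Cre-labelled libraries, against 20.3, 21.3 and 19.4 FPKM in the GFP-labelled libraries (log2 difference 0.17 ± 0.058, SE; edgeR adjusted p = 0.193).

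The other remodeller families served for comparison, and 0 of their genes passed the edgeR threshold, which 0.00959% of all genes tested passed. DESeq2 called 0 of the BAF and PBAF genes and 1, Chd3, of the ISWI, CHD and NuRD genes. It called 8.03% of all the genes to which it gave an adjusted p. Of 26 BAF and PBAF genes 4 had a positive and 22 a negative log2 difference, with a median of -0.086. At an unadjusted p under 0.05 there was 1 in each direction, where 8.11% of all genes tested were positive and 9.11% negative. The 3 BAF and PBAF genes with the smallest p were Bcl7c at -0.25, Smarcd2 at 0.32 and Smarcd1 at -0.14 (edgeR adjusted p = 0.231, 0.262 and 0.292). Of 29 ISWI, CHD and NuRD genes 10 were positive and 19 negative, with a median of -0.032. At an unadjusted p under 0.05 there was again 1 in each direction, beside the same shares over all genes tested. Chd3, a NuRD motor, had 80.2, 77.3 and 79.8 FPKM in the Cre-labelled libraries, against 88.8, 87.9 and 94.4 FPKM in the GFP-labelled libraries. Its log2 difference was -0.23 ± 0.053 (SE, n = 3 each; edgeR adjusted p = 0.109; DESeq2 adjusted p = 0.000344). Mbd2, which binds methylated DNA in NuRD, had 0.28 and Rsf1, an ISWI partner, had -0.14 (edgeR adjusted p = 0.161 and 0.298). The median of the 34 INO80, SRCAP and TIP60 genes, 0.030, thus stood beside medians of -0.086 and -0.032, and no test of that difference was made. The pan-neuronal markers had a median log2 difference of -0.22, and their part in the medians of these 3 lists was not tested.

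**Figure D5:**
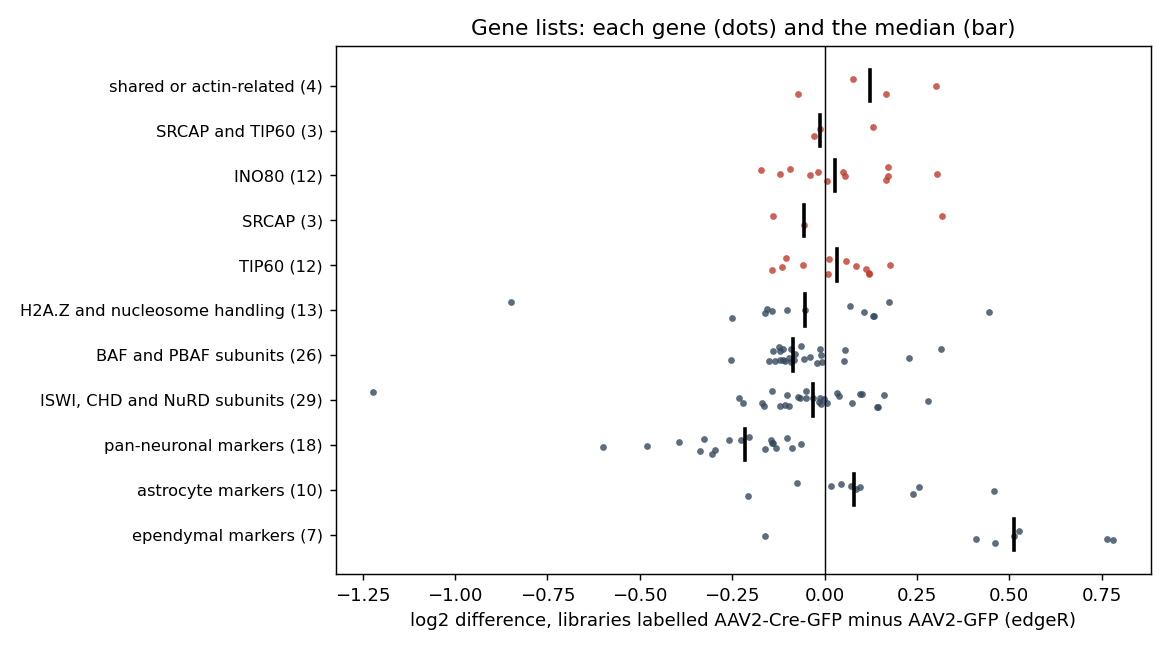
Log2 difference (libraries labelled AAV2-Cre-GFP minus AAV2-GFP, edgeR) of each gene, as dots, and the median of its list, as a bar, for the subunit lists by complex, 3 lists of other chromatin genes and 3 lists of cell type markers, with the number of genes in brackets. The subunit genes lie between -0.17 and 0.32, and the pan-neuronal markers have their median at -0.22 and the ependymal markers at 0.51.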

How the data were processed

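Poly(A) RNA of the PVH was made into dUTP-marked libraries with molecular identifiers on the adapters and sequenced as read pairs, per the labels' protocols. Cutadapt, HISAT2 and StringTie were used, per the submitters' processing notes, with versions, settings, use of strand in counting and removal of duplicates not given in the sources used here. The notes name the build mm9, but 32009 of 35024 shared gene identifiers (91.4%) have the start and end of GRCm38 in GENCODE M21, so coordinates are given as GRCm38. The counts deposited by the authors are whole numbers for each gene, without normalization. The FPKM columns are those deposited by the authors, scaled by gene length and library total.

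Counts were tested in R 4.3.3 by the quasi-likelihood test of edgeR 4.0.16 (TMM, filterByExpr with a minimum count of 10, no covariate, two-sided, Benjamini-Hochberg over 20865 genes, threshold 0.05), which was tested on simulated data. The SE of a log2 difference comes from the F statistic. Values per library, means and SDs are in FPKM, and CPM of marker genes use the deposited totals. Paralog ratios and Ruvbl2 were compared by exact permutation tests of FPKM. Alternatives were DESeq2 1.42.0, RLE scaling, no filter, the replicate number as a block, limma 3.58.1 on log2(FPKM + 0.5) where the mean reached 1 FPKM, each library left out in turn, and leaving out the 3 libraries with transcripts of other organs. No 2 libraries of the same group agreed within sampling noise (chi-square per gene 11.4 or more in every such pair). Pairs across the groups were not compared in this way.

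The members and all gene lists were chosen with earlier results of these data known. The text names all 34 members and up to 3 genes with the smallest p of each list of related genes. Sums are printed for the PVH, kidney, testis, pan-neuronal, ependymal and thalamus lists, and not for the other marker lists. H2az1 and Anp32e were added after their values were seen. The lists' symbols H2afz, H2afv and H2afx were matched by gene identifier to H2az1, H2az2 and H2ax. Shared sequence was counted as 31-base words of the GENCODE M21 transcripts, and overlap from its exons. RefSeq promoter windows were matched by symbol; Actr5, Actr8, Brd8, Epc1, Ino80c, Ino80d and Vps72 had none and are not analysed here for sequence.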

Additional observations from a re-analysis of the deposited data

How the results depend on the processing

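Over all genes, the count past the edgeR threshold was 2 (0 higher, 2 lower); it was 1322 with DESeq2 (514 higher, 808 lower), 9 with RLE scaling, 1 without the filter, 1059 without the 3 libraries with transcripts of other organs, and between 1 and 296 with 1 library left out, 296 being without Cre-labelled library 1. The number of subunit genes past the threshold was 0 in every edgeR and limma alternative run, and 1 (Ino80) with DESeq2. At an unadjusted p under 0.05 it was 1 (higher), where 17.2% of all genes were past that level. It was 2 with DESeq2 (1 higher, 1 lower; 11.4% of all genes), 3 without the filter (3 higher; 11.3%), 3 with the replicate block (2 higher, 1 lower; 14.5%), 5 with limma (5 higher; 11.9% of all genes higher and 7.61% lower), 7 without the 3 libraries (6 higher, 1 lower; 7.19% of all genes higher and 10.9% lower), and 2 to 4 with 1 library left out (12.7% to 16.2% of all genes). Leaving out those 3 libraries compares Cre-labelled library 1 alone with 2 GFP-labelled ones, on the assumption that it varies as they do, and moved the median log2 difference to 0.136.

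Leaving out 1 library, Ruvbl2 had its lowest log2 difference without GFP-labelled library 2, at -0.029, and its highest at 0.18. That of the Ruvbl1 to Ruvbl2 ratio was lowest without GFP-labelled library 1, at -0.078, and highest at 0.19. In all, 24 of the 34 members kept their sign in every alternative. The 9 others beside Ruvbl2 lay near 0. Yeats4 was 0.0054 without the filter, 0.024 with limma and 0.18 without the 3 libraries; Vps72 was 0.0068 with limma and 0.093 without the 3 libraries; Yy1 was 0.0020, 0.019 and 0.016 under the settings given for Yeats4; Tfpt was 0.14 and Trrap -0.020 without the 3 libraries; Uchl5 was -0.0026 with the replicate block. With 1 library left out, log2 differences ran from -0.087 to 0.072 for Yeats4, -0.074 to 0.028 for Vps72, -0.045 to 0.15 for Actr5, -0.098 to 0.026 for Tfpt, -0.12 to 0.11 for Uchl5, -0.026 to 0.017 for Yy1, -0.17 to 0.016 for Srcap, -0.022 to 0.049 for Trrap and -0.032 to 0.11 for Ing3. The cause was not tested.

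Same-numbered libraries did not deviate together (correlations across genes of -0.044, 0.012 and -0.022), so the numbers were not taken as pairs; the replicate block gave 3 calls over all genes and 0 among the members. With 3 libraries a group, an exact test of 1 value cannot go below 0.1.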

Other observations

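The deposited gene ontology terms give a second view of membership. All 14 genes annotated to the INO80 complex are among the 34 genes described, as are 10 of 12 annotated to the SWR1 (SRCAP) complex and 17 of 22 annotated to the NuA4 (TIP60) complex. The genes outside the 34 are Anp32e and Gm42715 for SRCAP, and Actb, Actbl2, Brd8dc, Msl3 and Msl3l2 for TIP60. Actb, the actin that sits in these complexes beside the actin-related proteins, had 239 FPKM in the Cre-labelled and 257 FPKM in the GFP-labelled libraries (log2 difference -0.14 ± 0.11, SE; edgeR adjusted p = 0.553). Msl3, a chromodomain relative of Morf4l1, had 5.48 FPKM in the Cre-labelled and 5.00 FPKM in the GFP-labelled libraries (log2 difference 0.093 ± 0.11, SE; edgeR adjusted p = 0.722).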
